A study of Homo sapiens with 5 samples.

Results

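The histone cluster genes encode the linker histone H1 and the core histones H2A, H2B, H3 and H4, and lie in 4 groups in the human genome that give the symbols their number (HIST1H, HIST2H, HIST3H and HIST4H). All rows of the gene table whose symbol begins with 1 of these 4 prefixes were taken, which gave 69 rows of 28442, and each was assigned to a histone type and a cluster from its symbol. The types held 6 rows for H1, 16 for H2A, 20 for H2B, 13 for H3 and 14 for H4, and the clusters held 55, 10, 3 and 1 rows. Counts were 0 in every library for 7 rows (HIST1H3E, HIST1H3G, HIST1H3I, HIST1H4F, HIST1H4G, HIST1H2BH and HIST1H2BK), for which the 1-sided 95% limit is 3 counts in a library and covers counting error only. A mean of at least 5 CPM (counts scaled to library size) over the 5 libraries was reached by 38 rows, of which 3 are H1, 11 H2A, 11 H2B, 5 H3 and 8 H4. The other 24 rows lay in between, and of these HIST4H4, the single cluster 4 row, came closest to the floor with a mean of 4.17 CPM.

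These genes are known for making histone protein while DNA is copied. Their transcripts rise as cells enter S phase and are destroyed at its end. Most of them carry no poly(A) tail and end instead in a short stem-loop that is bound by SLBP, the stem-loop binding protein, and is cut by a dedicated processing machinery. NPAT is the coactivator of their transcription. Replication-independent histone variants, which are made outside S phase as well, come from separate genes, most of whose transcripts are polyadenylated.

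The RNA came from TOV21G, a cell line established from a human clear cell carcinoma of the ovary, studied in a series whose title concerns HDAC6 activity in ARID1A-mutated ovarian cancer. HDAC6 is a mainly cytoplasmic deacetylase with tubulin among its substrates, and ARID1A belongs to the SWI/SNF complex, which remodels chromatin. The 5 libraries were shHDAC6, from cells infected with a virus that carries a short hairpin RNA against HDAC6, its control shControl with a control hairpin, the HDAC6 inhibitors ACY1215 and CAY10603, and the drug vehicle. Cells infected with a hairpin virus were selected with puromycin, and the labels name a pair of HDAC6 hairpins without saying which one the shHDAC6 library carries. The sources used here give no doses or treatment times, and each treatment has 1 library. A single cell line was used, so the values describe that line under these treatments.

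Total counts ran from 43498805 in vehicle to 57442767 in shControl. HDAC6 itself was at 29.2 CPM in shHDAC6, against 48.0 CPM in shControl, and at 33.2 CPM in ACY1215 and 48.2 CPM in CAY10603, against 51.1 CPM in vehicle. All 8 clear cell carcinoma markers had counts in every library and summed to between 863 and 1070 CPM, although KRT7 and NAPSA stayed below 1 CPM. Leukocyte markers summed to between 2.36 and 5.65 CPM, and endothelial and erythroid markers to at most 0.518 and 0.157 CPM, with HBA2 at 0 throughout. Fibroblast markers summed to 25 CPM in shHDAC6 and 27.3 CPM in shControl, and to 38.1 CPM in ACY1215 and 37.4 CPM in CAY10603 against 27.3 CPM in vehicle, mostly from COL1A2. The part of these markers in the histone values was not tested.

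Histone genes differ in the regulatory sequence in front of them, and a promoter each of H1, H2B, H3 and H4, with a second H2B promoter from cluster 3, is printed here to show what the types share and where they differ. The windows run from 250 bases before to 50 bases after the gene start and come from RefSeq (GRCh38.p14), whose table matched 61 of the 69 rows by gene ID. The letters were searched on both strands, and capitals mark every match to TATAAA (the TATA box), CCAAT (the CCAAT box), ATTTGCAT (the octamer bound by POU2F1), AAACACA (the H1 box) or GGTCC (part of an H4 element). Neighbouring or overlapping matches run together in the capitals, as the CCAAT and GGTCC matches of HIST1H3B do. The HIST1H2BJ window overlaps that of the H2A gene HIST1H2AG, which starts 248 bases away on the other strand.
HIST1H1C promoter, chr6:26056421-26056720 (minus strand): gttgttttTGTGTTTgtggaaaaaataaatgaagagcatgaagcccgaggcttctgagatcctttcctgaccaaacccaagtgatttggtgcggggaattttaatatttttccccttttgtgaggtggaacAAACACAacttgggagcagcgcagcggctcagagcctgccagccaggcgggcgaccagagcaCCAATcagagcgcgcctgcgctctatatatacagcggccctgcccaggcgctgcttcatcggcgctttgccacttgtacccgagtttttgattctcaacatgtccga
HIST1H2BJ promoter, chr6:27132746-27133045 (minus strand): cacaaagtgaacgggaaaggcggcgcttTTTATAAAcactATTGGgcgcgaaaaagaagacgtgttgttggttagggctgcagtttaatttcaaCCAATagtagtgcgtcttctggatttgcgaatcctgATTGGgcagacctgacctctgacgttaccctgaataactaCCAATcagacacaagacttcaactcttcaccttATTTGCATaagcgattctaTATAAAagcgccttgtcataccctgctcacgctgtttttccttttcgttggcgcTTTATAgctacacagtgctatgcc
HIST1H3B promoter, chr6:26032050-26032349 (minus strand): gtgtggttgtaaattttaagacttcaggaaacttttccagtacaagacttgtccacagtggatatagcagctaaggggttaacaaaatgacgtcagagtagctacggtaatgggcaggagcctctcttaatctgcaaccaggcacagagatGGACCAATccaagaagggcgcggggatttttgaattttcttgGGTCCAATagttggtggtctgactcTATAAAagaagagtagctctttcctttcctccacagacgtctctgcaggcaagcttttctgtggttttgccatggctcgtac
HIST1H4K promoter, chr6:27831511-27831810 (minus strand): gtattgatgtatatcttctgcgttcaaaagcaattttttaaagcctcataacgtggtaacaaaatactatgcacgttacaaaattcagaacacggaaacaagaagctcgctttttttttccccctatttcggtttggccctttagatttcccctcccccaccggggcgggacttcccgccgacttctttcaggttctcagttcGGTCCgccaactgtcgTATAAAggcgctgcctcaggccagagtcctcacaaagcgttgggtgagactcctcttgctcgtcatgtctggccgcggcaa
HIST3H2BB promoter, chr1:228457853-228458152 (plus strand): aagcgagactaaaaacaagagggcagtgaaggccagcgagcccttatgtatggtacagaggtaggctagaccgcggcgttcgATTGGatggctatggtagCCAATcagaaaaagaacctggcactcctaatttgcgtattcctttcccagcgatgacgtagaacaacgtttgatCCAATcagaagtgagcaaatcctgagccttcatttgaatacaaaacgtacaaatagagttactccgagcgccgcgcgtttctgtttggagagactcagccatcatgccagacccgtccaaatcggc

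The CCAAT box was in all 6 H1, all 14 H2A, all 18 H2B and all 11 H3 promoters that were matched, but in only 3 of 12 H4 promoters, against 39.7% of all 27305 genes in the promoter table. The octamer was in 11 of 14 H2A and 14 of 18 H2B promoters, in 1 of 11 H3 promoters and in 0 of the 6 H1 and 12 H4 promoters, against 2.19% of all genes. The H1 box was in all 6 H1 promoters, in 1 H2A and 1 H3 promoter, and in no H2B or H4 promoter, against 6.94% of all genes. GGTCC was in 11 of 12 H4 promoters, against 50.6% of all genes, so its presence alone says little. A TATAAA match was found for 41 of the 61 matched rows (67.2%), against 14% of all genes. The cluster 3 promoter of HIST3H2BB held CCAAT matches but none of the other letters, and no match says only that these letters are not in the window.

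The stem-loop that ends these transcripts was looked for by the known histone stem-loop pattern in the GENCODE release 29 transcripts (GRCh38), and was found for 29 of the 69 rows. None of these was an H1 row, and 5 were H2A, 12 H2B, 5 H3 and 7 H4 rows. The transcript models of the other rows may end before the stem-loop, so a missing match says nothing about those transcripts. Outside the 69 rows, 12 gene names matched among 206694 transcripts. The sites of named rows from 4 types are printed as 26 bases with the 16 bases of the stem-loop in capitals. In these sites the stem-loops of the H4 rows differ from those of the other types.
HIST2H2AA4 stem-loop, chr1:149851569-149851594 (plus strand): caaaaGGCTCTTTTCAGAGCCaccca
HIST3H2A stem-loop, chr1:228457364-228457389 (minus strand): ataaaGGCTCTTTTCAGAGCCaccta
HIST1H2BC stem-loop, chr6:26123467-26123492 (minus strand): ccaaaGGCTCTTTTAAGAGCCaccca
HIST3H2BB stem-loop, chr1:228458533-228458558 (plus strand): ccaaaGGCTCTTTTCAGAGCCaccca
HIST2H3C stem-loop, chr1:149840687-149840712 (minus strand): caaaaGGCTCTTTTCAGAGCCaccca
HIST1H4E stem-loop, chr6:26204996-26205021 (plus strand): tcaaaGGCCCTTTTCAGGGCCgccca
HIST2H4A stem-loop, chr1:149833027-149833052 (plus strand): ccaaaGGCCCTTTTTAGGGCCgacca

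Among 27 rows whose site could be placed on the genome, the 7 H4 rows shared 2 stem-loop sequences and the 20 H2A, H2B and H3 rows shared 4. The H4 forms and those of the other types had 0 sequences in common.

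Histone transcripts together made up 0.619% of all counts in shHDAC6 and 0.365% in shControl, and 0.210% in ACY1215 and 0.497% in CAY10603, against 0.597% in vehicle. Summed over the 69 rows this was 6056 CPM in shHDAC6 and 3644 CPM in shControl, a log2 ratio of 0.73. It was 2198 CPM in ACY1215 and 5019 CPM in CAY10603, against 5822 CPM in vehicle, with log2 ratios of -1.41 and -0.21. The ACY1215 library was the lowest of the 5 for 35 of the 38 rows above the floor, and shControl was the lowest for the other 3 (HIST1H4C, HIST1H4K and HIST1H4J). The shHDAC6 library was the highest for 25 of them and vehicle for 11. In bulk RNA, fewer cells that make histone mRNA and less of it in each cell cannot be told apart.

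**Figure D1:**
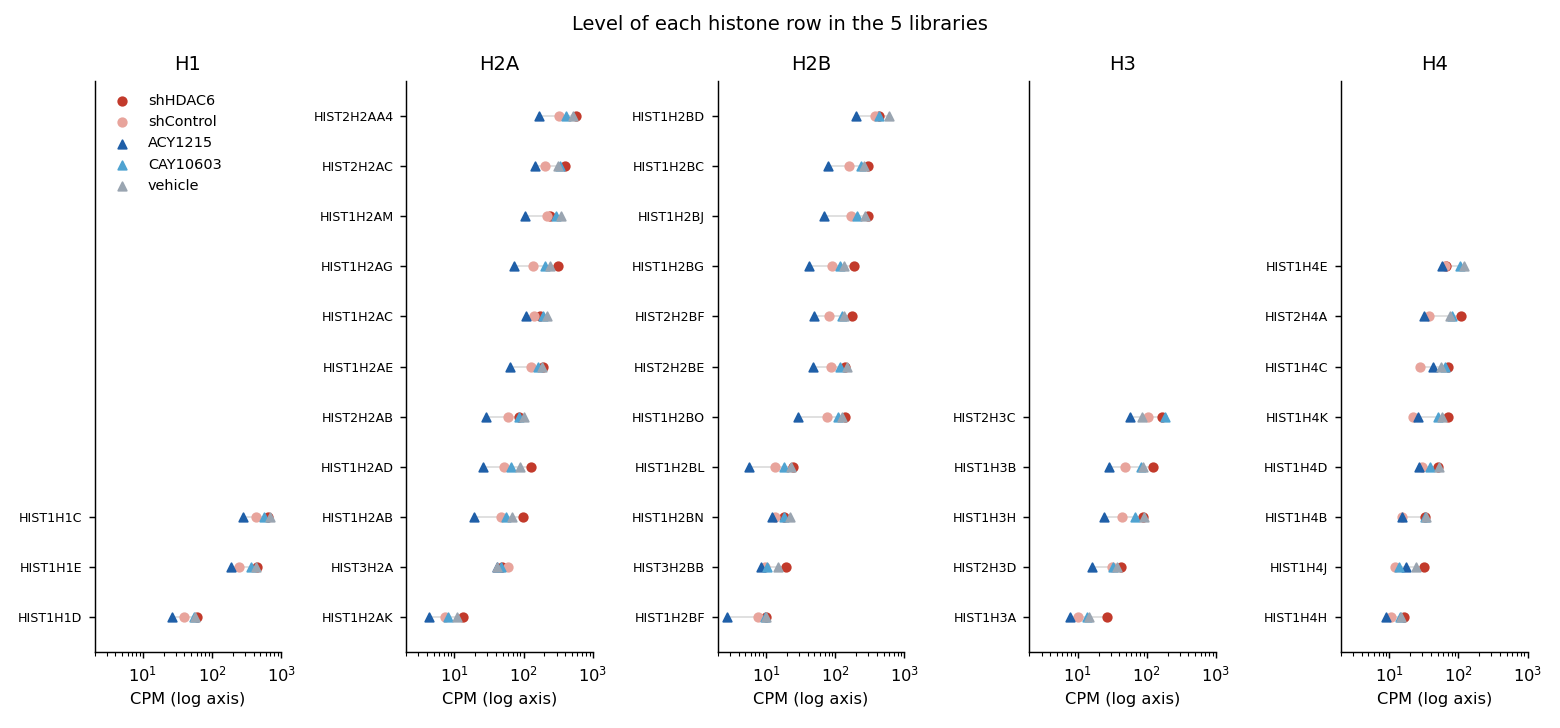
CPM (log axis) of the 38 histone rows with a mean of at least 5 CPM, 1 panel per histone type, with each library as a symbol (circles for the shRNA libraries, triangles for the drug and vehicle libraries). ACY1215 is the leftmost symbol for 35 rows, and HIST3H2A has the narrowest spread of the H2A rows.

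With 1 library on each side there is no test for any single pair of libraries, so folds are described and set beside the same counts over all 10741 rows with a mean of at least 5 CPM. In shHDAC6 against shControl, 37 of 38 histone rows were higher (50.7% of all rows) and 13 were at least 2-fold higher (0.438% of all rows), while 0 were at least 2-fold lower (0.251% of all rows). The median log2 fold was 0.86, with a range of -0.27 to 1.65, against a median of 0.00 over all rows. In ACY1215 against vehicle all 38 rows were lower (50% of all rows), 29 of them at least 2-fold (3.04% of all rows), and 0 were at least 2-fold higher (1.67% of all rows), with a median of -1.32 and a range of -2.10 to -0.02. In CAY10603 against vehicle 33 rows were lower (48.5% of all rows), 5 were higher (51.5% of all rows) and 0 reached 2-fold lower (0.242% of all rows), while 1 row, HIST2H3C, was at least 2-fold higher (0.0279% of all rows). The CAY10603 median was -0.21 and its range -0.82 to 1.11. ACY1215 and CAY10603 share the vehicle library, so their folds are not independent of each other.

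The control libraries differed from each other in the same rows. In shControl against vehicle 36 of 38 histone rows were lower (47.7% of all rows), 5 of them at least 2-fold (0.903% of all rows), with a median log2 fold of -0.71. The other 2 were higher (52.3% of all rows), 0 of them at least 2-fold (0.512% of all rows). Set against vehicle in place of shControl, shHDAC6 had 27 rows higher (52.0% of all rows) and 0 rows at least 2-fold higher (0.289% of all rows), with a median of 0.17. Set against shControl in place of vehicle, ACY1215 had 35 rows lower (52.8% of all rows), 9 of them at least 2-fold (1.18% of all rows), with a median of -0.77. CAY10603 had 37 rows higher than shControl (48.6% of all rows), 4 of them at least 2-fold (0.857% of all rows), with a median of 0.43, the opposite sign to its value against vehicle. Experiment type and control library cannot be told apart here.

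**Figure D2:**
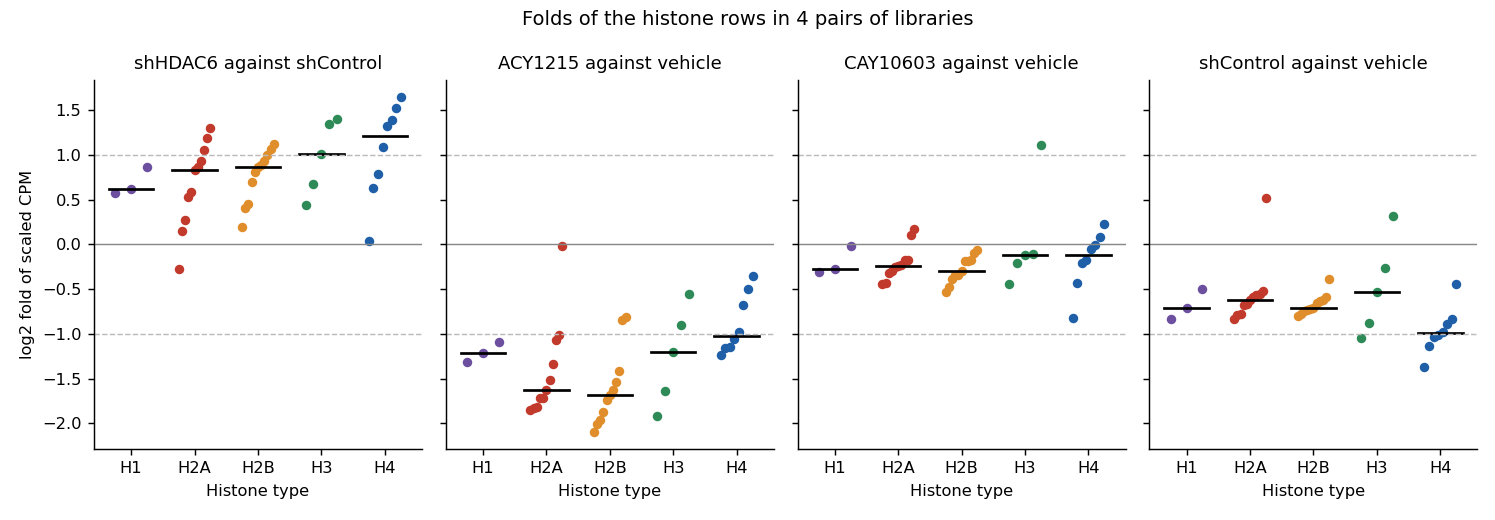
log2 folds of scaled CPM for the 38 histone rows in 4 pairs of libraries, by histone type, with each row as a point, the type's median as a black bar and 2-fold in either direction as dashed lines. H4 has the highest median in shHDAC6 against shControl (1.21) and the least negative one in ACY1215 against vehicle (-1.02), and is the lowest in shControl against vehicle (-0.99).

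Linker histone H1, which binds the DNA between nucleosomes, was measured almost wholly through 3 genes. HIST1H1C, the H1 row with the highest counts, was at 636 CPM in shHDAC6, against 427 CPM in shControl, and at 281 CPM in ACY1215 and 564 CPM in CAY10603, against 698 CPM in vehicle. HIST1H1E was at 449 CPM in shHDAC6, against 247 CPM in shControl, and at 190 and 362 CPM in ACY1215 and CAY10603, against 440 CPM in vehicle. HIST1H1D was lower in level, at 61.0 CPM in shHDAC6 and 39.6 CPM in shControl, with 26.2 CPM in ACY1215, 55.3 CPM in CAY10603 and 56.0 CPM in vehicle. All 3 had the same order, with ACY1215 lowest and shControl next, and shHDAC6 or vehicle highest. The H1 sum had a log2 ratio of 0.68 (95% binomial interval for counting error 0.67 to 0.70) in shHDAC6 against shControl, of -1.27 (-1.29 to -1.24) in ACY1215 against vehicle, and of -0.28 (-0.30 to -0.27) in CAY10603 against vehicle. The remaining H1 rows carried few counts: HIST1H1T reached at most 1.44 CPM, and HIST1H1A and HIST1H1B had a count in 1 library each.

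H2A, which pairs with H2B in the nucleosome, had the highest summed level per length of any type in every library. Its rows summed to 6571 FPKM (the authors' value, scaled to row length and depth) in shHDAC6 and 4327 FPKM in shControl, and to 2388 FPKM in ACY1215 and 5846 FPKM in CAY10603, against 6856 FPKM in vehicle. By scaled CPM the order of shHDAC6 and vehicle was reversed, at 2251 CPM in shHDAC6 and 2129 CPM in vehicle. Row lengths implied by FPKM differed between libraries, as described below. HIST2H2AA4, a cluster 2 row that merges 2 near-identical copies, was at 573 CPM in shHDAC6, against 323 CPM in shControl, and at 167 CPM in ACY1215 and 412 CPM in CAY10603, against 516 CPM in vehicle. HIST2H2AC was at 395 CPM in shHDAC6, against 206 CPM in shControl, and at 148 and 333 CPM in ACY1215 and CAY10603, against 311 CPM in vehicle, so CAY10603 stood above vehicle for this row (log2 fold 0.10, interval 0.07 to 0.14). HIST1H2AM differed little between the shRNA libraries, at 242 CPM in shHDAC6 and 219 CPM in shControl (log2 fold 0.14), and was lower in ACY1215, at 106 CPM, with 292 CPM in CAY10603 and 348 CPM in vehicle. HIST2H2AB was at 85.9 CPM in shHDAC6 and 59.7 CPM in shControl, and at 28.9 CPM in ACY1215 and 86.7 CPM in CAY10603, against 103 CPM in vehicle. Over the 11 H2A rows above the floor the median log2 fold was 0.83 in shHDAC6 against shControl, -1.63 in ACY1215 against vehicle and -0.25 in CAY10603 against vehicle.

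HIST3H2A, the H2A gene of cluster 3, went against the other rows. It was at 49.2 CPM in shHDAC6 and 59.4 CPM in shControl, and at 40.7 CPM in ACY1215 and 46.8 CPM in CAY10603, against 41.4 CPM in vehicle. Its log2 fold was -0.27 (interval -0.35 to -0.20) in shHDAC6 against shControl, the 1 row of 38 that was lower there. It was -0.02 (-0.12 to 0.07) in ACY1215 against vehicle, the smallest difference of the 38, and 0.18 (0.09 to 0.27) in CAY10603 against vehicle. shControl was the highest of its 5 libraries, and no other histone row above the floor had its highest value there.

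H2B had the lowest median log2 fold of any type in ACY1215 against vehicle (-1.68). HIST1H2BO was at 138 CPM in shHDAC6, against 76.0 CPM in shControl, and at 29.2 CPM in ACY1215 and 110 CPM in CAY10603, against 125 CPM in vehicle. Its log2 fold of -2.10 (interval -2.18 to -2.02) in ACY1215 against vehicle was also the lowest of all 10741 rows. HIST1H2BJ was at 298 CPM in shHDAC6, against 170 CPM in shControl, and at 69.0 CPM in ACY1215 and 205 CPM in CAY10603, against 268 CPM in vehicle. HIST1H2BL, a low row, was at 24.6 CPM in shHDAC6 and 13.3 CPM in shControl, and at 5.62 CPM in ACY1215 and 17.9 CPM in CAY10603, against 22.8 CPM in vehicle. In all 3 rows ACY1215 was lowest, below shControl, which was in turn below the other libraries.

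HIST1H2BD had the highest counts of the H2B rows, at 435 CPM in shHDAC6 and 381 CPM in shControl, and at 203 CPM in ACY1215 and 423 CPM in CAY10603, against 591 CPM in vehicle. Its log2 fold in shHDAC6 against shControl, 0.19, was the smallest of the 11 H2B rows, and its fold in CAY10603 against vehicle was -0.48. HIST1H2BC was at 302 CPM in shHDAC6, against 158 CPM in shControl, and at 79.4 CPM in ACY1215 and 234 CPM in CAY10603, against 264 CPM in vehicle. Of the cluster 2 rows, HIST2H2BF had a log2 fold of 1.12 (interval 1.07 to 1.17) in shHDAC6 against shControl, the highest of the 11 H2B rows, and HIST2H2BE had one of 0.70 (interval 0.65 to 0.75). Their log2 folds in ACY1215 against vehicle were -1.42 for HIST2H2BF and -1.63 for HIST2H2BE. HIST2H2BE was at 139 CPM in shHDAC6 and 68.7 FPKM, with a row length of 2035 bases in shControl as implied by count and FPKM, against 347 bases or less for the H2A and H2B rows named so far. The H2B sum had log2 ratios of 0.69 in shHDAC6 against shControl, -1.66 in ACY1215 against vehicle and -0.32 in CAY10603 against vehicle.

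H3, whose tail carries many of the studied histone modifications, was the type with the lowest summed level, between 363 FPKM in ACY1215 and 1136 FPKM in shHDAC6. HIST2H3C, a cluster 2 row that merges 2 copies, departed from the others in CAY10603. It was at 167 CPM in shHDAC6 and 105 CPM in shControl, and at 57.5 CPM in ACY1215 and 181 CPM in CAY10603, against 84.3 CPM in vehicle. CAY10603 was therefore the highest of the 5 libraries, which held for no other row above the floor, and vehicle was below shControl, which held for 1 further row, HIST3H2A. The log2 fold of HIST2H3C was 1.11 (interval 1.05 to 1.16) in CAY10603 against vehicle, the highest of all 10741 rows. HIST2H3C is itself among the near-identical cluster 2 copies. Leaving these copies out therefore gives 0 histone rows at least 2-fold higher in CAY10603 against vehicle by construction. HIST2H3D, the other cluster 2 H3 row above the floor, was at 32.1 CPM in CAY10603 and 37.2 CPM in vehicle (log2 fold -0.21). Reads of near-identical copies could be split unevenly between such rows, so the H3 sum is given below. The part of such a split in these folds was not tested.

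HIST1H3B was at 122 CPM in shHDAC6, against 48.2 CPM in shControl, and at 28.4 CPM in ACY1215 and 81.5 CPM in CAY10603, against 88.4 CPM in vehicle. HIST1H3H was at 87.7 CPM in shHDAC6 and 43.7 CPM in shControl, and at 23.9 CPM in ACY1215 and 66.6 CPM in CAY10603, against 90.6 CPM in vehicle. HIST1H3A, the lowest of the 5 H3 rows, was at 26.7 CPM in shHDAC6 and 10.1 CPM in shControl, and at 7.87 CPM in ACY1215 and 13.6 CPM in CAY10603, against 14.7 CPM in vehicle. Their log2 folds in shHDAC6 against shControl were 1.35, 1.00 and 1.40. In ACY1215 against vehicle the folds were -1.64 for HIST1H3B, -1.92 for HIST1H3H and -0.90 for HIST1H3A. The H3 sum was the only one of the 5 type sums that was above vehicle in CAY10603, at 379 CPM against 320 CPM in vehicle (log2 ratio 0.24, interval 0.21 to 0.28), and HIST2H3C makes up 181 of the 379 CPM.

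H4, whose genes encode nearly one and the same protein, was the type with the highest log2 ratio of sums in shHDAC6 and the least negative one in ACY1215. Its sum was at 459 CPM in shHDAC6 and 227 CPM in shControl (log2 ratio 1.02, interval 0.99 to 1.05), and at 232 CPM in ACY1215 against 442 CPM in vehicle (-0.93, interval -0.96 to -0.90). The share of H4 in the summed histone FPKM was 12.2% in shHDAC6 and 10.71% in shControl, and 18.03% in ACY1215 and 13.7% in CAY10603, against 13.1% in vehicle. The share of H2B was 25.7% in ACY1215, against 31.4% in vehicle. In ACY1215 against vehicle, 17 of the 22 H2A and H2B rows had folds below the lowest of the 8 H4 rows (-1.24). The H4 sum of ACY1215 was close to that of shControl, with a log2 ratio of 0.036.

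HIST1H4K was at 70.3 CPM in shHDAC6, against 22.4 CPM in shControl, and at 26.02 CPM in ACY1215 and 50.1 CPM in CAY10603, against 57.8 CPM in vehicle. Its log2 fold of 1.65 (interval 1.56 to 1.75) was the highest of the histone rows in shHDAC6 against shControl. HIST2H4A, whose row merges 4 transcripts of near-identical copies, was at 109 CPM in shHDAC6 and 37.8 CPM in shControl (log2 fold 1.53), and at 32.2 CPM in ACY1215 and 80.3 CPM in CAY10603, against 76.1 CPM in vehicle. HIST1H4C was at 70.2 CPM in shHDAC6 and 28.0 CPM in shControl (1.32), and at 43.3 CPM in ACY1215 and 64.8 CPM in CAY10603, against 55.3 CPM in vehicle. ACY1215 was thus above shControl for HIST1H4C and HIST1H4K, unlike for 35 of the 38 rows. HIST1H4J, the third such row, was at 31.5 CPM in shHDAC6 and 12.03 CPM in shControl, and at 17.4 CPM in ACY1215 and 13.95 CPM in CAY10603, against 24.7 CPM in vehicle. It was the 1 row of 38 that was lower in CAY10603 than in ACY1215. HIST1H4E was at 66.1 CPM in shHDAC6 and 64.7 CPM in shControl (log2 fold 0.03, interval -0.04 to 0.10), and at 57.5 CPM in ACY1215 and 106 CPM in CAY10603, against 120 CPM in vehicle.

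**Figure D3:**
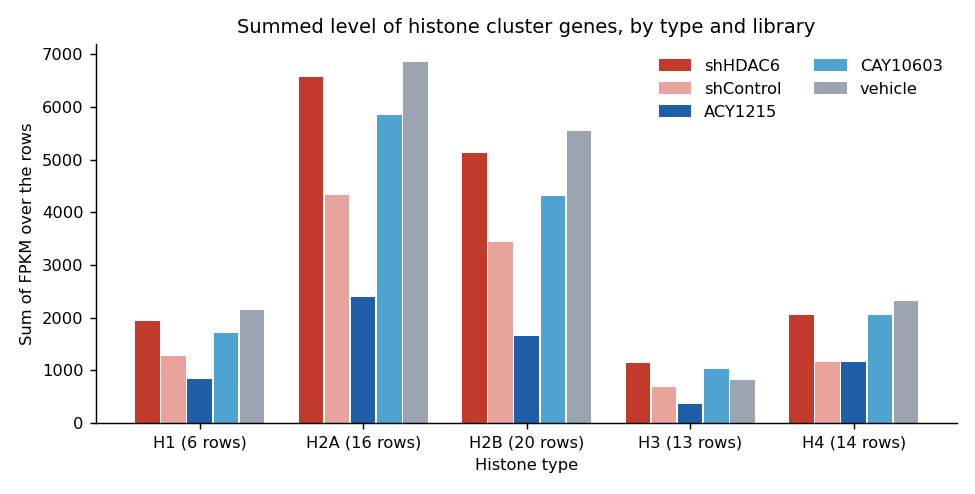
Sum of the authors' FPKM over all rows of each histone type, as bars for the 5 libraries. H2A is the highest type in every library, and the ACY1215 bar is the lowest of every type, although for H4 it (1151 FPKM) is close to the shControl bar (1164 FPKM). By scaled CPM the H4 sum was higher in ACY1215 (232 CPM) than in shControl (227 CPM).

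Rows of clusters 1 and 2 had like medians, and both cluster 3 rows above the floor had folds nearer to 0 than these medians in ACY1215 against vehicle. Medians of log2 folds in shHDAC6 against shControl were 0.86 for the 28 cluster 1 rows and 0.76 for the 8 cluster 2 rows above the floor. In ACY1215 against vehicle they were -1.43 for cluster 1 and -1.33 for cluster 2, with 22 and 7 rows at least 2-fold lower. The summed level of the 3 cluster 3 rows was 68.6 CPM in shHDAC6 and 69.2 CPM in shControl, and 49.3 CPM in ACY1215 and 57.2 CPM in CAY10603, against 56.4 CPM in vehicle. The cluster 3 log2 ratios were -0.01 (interval -0.08 to 0.05) for shHDAC6, -0.20 (-0.28 to -0.12) for ACY1215 and 0.02 (-0.06 to 0.10) for CAY10603, but this sum is carried mainly by HIST3H2A. HIST3H2BB, whose promoter is printed above, was at 19.5 CPM in shHDAC6 and 9.76 CPM in shControl (log2 fold 0.99), and at 8.52 CPM in ACY1215 and 10.4 CPM in CAY10603, against 15.01 CPM in vehicle. Its log2 fold of -0.81 in ACY1215 against vehicle was the least negative of the 11 H2B rows (median -1.68). In CAY10603 against vehicle its log2 fold of -0.53 was the lowest of them. HIST4H4 of cluster 4 was at 4.99 CPM in shHDAC6 and 4.39 CPM in shControl, and at 3.72 CPM in ACY1215 and 4.41 CPM in CAY10603, against 3.34 CPM in vehicle, so ACY1215 and vehicle did not differ beyond counting error (log2 ratio 0.16, interval -0.16 to 0.47).

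Many H2A and H2B genes start back to back on opposite strands and share the bases between their starts. Pairs were found by position alone in RefSeq (starts less than 500 bases apart), which gave 10 pairs, and 8 of these had both rows above the floor, with starts 194 to 248 bases apart. In ACY1215 against vehicle the H2B row had the lower log2 fold in 7 of the 8 pairs, with a median difference of -0.31 and a range of -0.79 to 0.49. In shHDAC6 against shControl the H2B row was below its H2A partner in 4 pairs and above it in 4, with differences of -0.89 to 1.27. In CAY10603 against vehicle it was again 4 and 4. The largest gaps were those of HIST3H2A and HIST3H2BB in shHDAC6 (1.27) and in ACY1215 (-0.79). With 1 library per treatment and copies that can share reads, differences within single pairs have no replicate check.

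**Figure D4:**
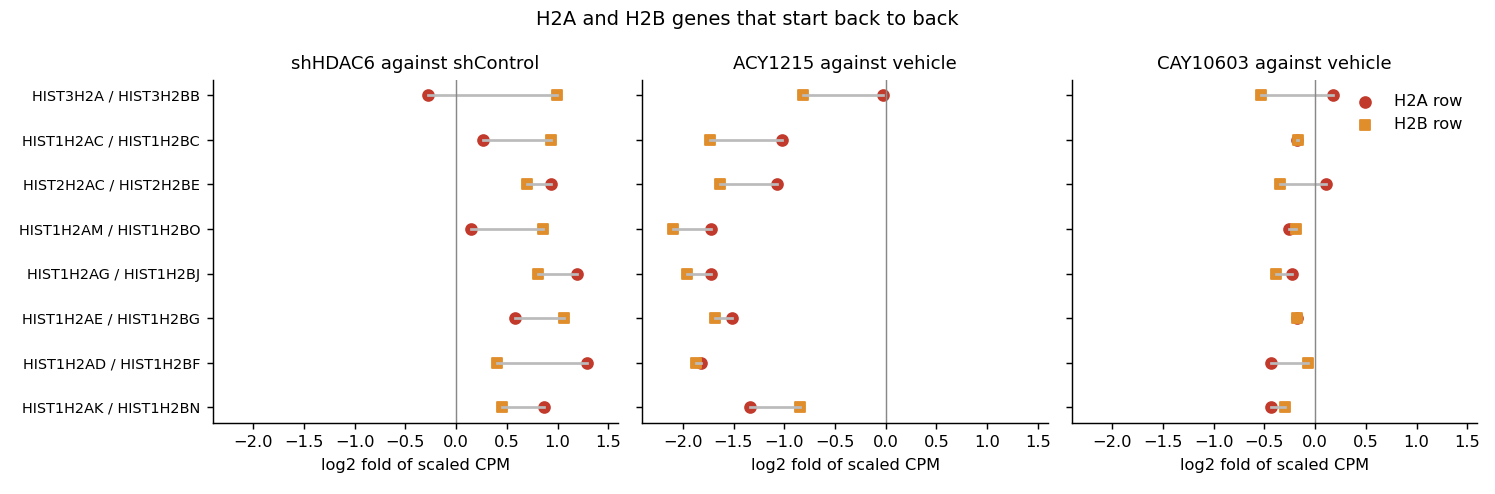
log2 folds of scaled CPM for the 8 back-to-back gene pairs (circle for H2A, square for H2B, joined by a line), in shHDAC6 against shControl, ACY1215 against vehicle and CAY10603 against vehicle. In the ACY1215 panel the square is left of the circle in 7 of 8 pairs.

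The inhibitors were also set side by side, although their doses and times are not known. In CAY10603 against ACY1215, 37 of 38 histone rows were higher (50% of all rows), 24 of them at least 2-fold (2.24% of all rows), with a median log2 fold of 1.23, and 0 were at least 2-fold lower (1.03% of all rows). H2B had a median of 1.5 and H4 of 0.78. HIST1H2BO had the highest fold (1.91) and HIST1H4J the lowest (-0.32). No test is possible for this pair, and the values compare these libraries only.

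The libraries differed in the row length implied by dividing counts by FPKM, and histone rows are short. Over 1235 rows with a single transcript, the implied length was 38.3 bases longer in shHDAC6 than in shControl (quartiles 38.0 and 38.6) and 33.5 bases longer than in vehicle. ACY1215 was 4.75 bases and CAY10603 0.34 bases shorter than vehicle. Such a shift changes FPKM of short rows more than that of long rows. By FPKM, with the median of all rows set to 0, shHDAC6 against shControl gave a histone median of 0.70, against 0.86 by counts. It gave 8 rows at least 2-fold higher in place of 13 by counts (0.438% of all rows). The share of all rows at least 2-fold higher by FPKM is not given here. HIST1H4E, HIST1H2AM and HIST3H2A then had folds of -0.19, -0.006 and -0.42. HIST1H2AC had an implied length of 434 bases in shHDAC6 and 479 in shControl, and of 392 in ACY1215 and 390 in CAY10603, against 388 in vehicle.

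**Figure D5:**
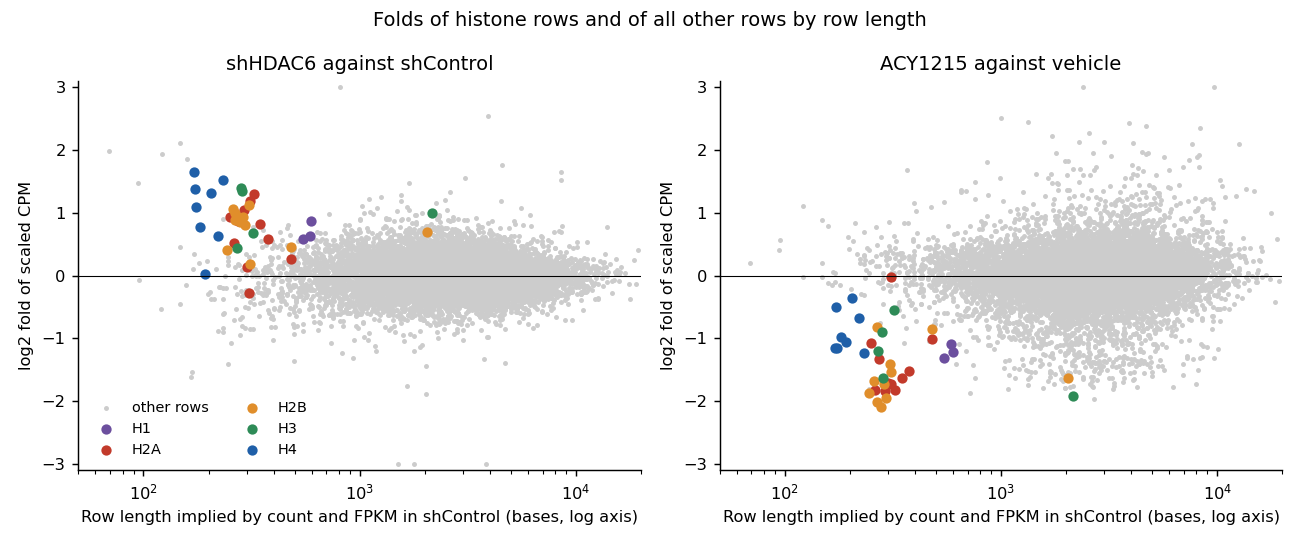
log2 fold of scaled CPM against the row length implied in shControl (bases, log axis), in shHDAC6 against shControl and ACY1215 against vehicle. Histone rows are coloured by type and other rows are grey. Grey folds beyond 3 in either direction are drawn at 3, and rows shorter or longer than the axis range are not drawn. Most histone points lie above most grey points of like length in shHDAC6 and below most of them in ACY1215. HIST3H2A is the red point nearest to 0 in ACY1215.

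Other rows of like length, taken without regard to kind, had medians near 0 or of the opposite sign. In shHDAC6 against shControl, 49 other rows with an implied length under 250 bases had a median of -0.08, against 1.09 for 9 histone rows. Between 250 and 350 bases 55 other rows had a median of -0.23, against 0.89 for 21 histone rows. The other rows under 250 bases were mixed in this pair, so their median does not describe every kind of short RNA. Of small RNAs that encode no protein, SCARNA10, SNORD17 and RPPH1 had folds of 2.12, 1.98 and 1.85, above the highest histone row. RMRP had 1.48, while SCARNA9L and SNORD8 had -1.62 and -1.02. The protein-coding rows RPS27 and COX7C had -1.53 and -0.89. Rows of each kind were not counted. The part of transcript kind in the histone folds was not tested. In ACY1215 against vehicle the other rows had medians of 0.20 and 0.17 in these length ranges, against -1.06 and -1.64 for the histone rows. The long rows HIST1H3H and HIST2H2BE, at over 2000 bases, had folds of 1.00 and 0.70 in shHDAC6 and -1.92 and -1.63 in ACY1215, within the range of the short ones.

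Genes listed for histone transcription and 3' end processing and for histone mRNA decay had medians nearer to 0 than the histone rows. The first list also holds cell cycle genes such as CCNA2. Of 17 measured genes of histone transcription and 3' end processing, 13 were higher in shHDAC6 than in shControl (50.7% of all rows), with a median log2 fold of 0.18. In ACY1215 against vehicle 16 were lower (50% of all rows), with a median of -0.20. Of these, 2 were at least 2-fold lower (3.04% of all rows), both of them cyclin genes. SLBP, which binds the stem-loop, had folds of 0.09 in shHDAC6, -0.28 in ACY1215 and 0.10 in CAY10603. The processing factors CPSF2 and CPSF3 had ACY1215 folds of -0.29 and -0.12, and NCBP1, a cap binding protein, -0.01, while CCNA2, cyclin A2, had 0.68 in shHDAC6 and -1.62 in ACY1215. Of 10 genes of histone mRNA decay, 6 were higher in shHDAC6 (50.7% of all rows) and 5 were lower in ACY1215 (50% of all rows). The medians were 0.02 and -0.03. None reached 2-fold, against 0.438% of all rows higher in shHDAC6 and 3.04% lower in ACY1215. Among these XRN1, an exonuclease, and ZCCHC6, a terminal uridylyl transferase, had ACY1215 folds of 0.12 and 0.18. In CAY10603 against vehicle the medians were 0.03 for processing and 0.05 for decay.

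Replication-independent variants had medians of the same sign as the cluster genes, nearer to 0. Of 11 measured, 9 were higher in shHDAC6 than in shControl (50.7% of all rows), with a median of 0.34. In ACY1215 against vehicle 10 were lower (50% of all rows), 1 of them at least 2-fold (3.04% of all rows), with a median of -0.44. H2AFZ, the variant H2A of active promoters, had 0.42 in shHDAC6 and -0.98 in ACY1215, whereas H3F3B and H3F3A, which encode the replacement H3, had 0.12 and -0.15 in shHDAC6 and -0.14 and -0.19 in ACY1215. Of 20 histone chaperones 12 were higher in shHDAC6 (50.7% of all rows), with a median of 0.06. In ACY1215 16 were lower (50% of all rows), 4 of them at least 2-fold (3.04% of all rows), with a median of -0.33. Among these 4 is a gene that is also on the replication list below. In ACY1215 NASP, which binds H3 and H4, had -0.44 and NAP1L1, which binds H2A and H2B, had 0.04. The medians in CAY10603 against vehicle were 0.01 for variants and 0.00 for chaperones.

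Of the lists compared, genes of S phase entry and DNA replication had the median nearest to that of the histone rows in ACY1215 against vehicle. In shHDAC6 against shControl theirs was also the nearest, but at 0.37 it was close to that of the variants (0.34). Of 20 genes 19 were higher in shHDAC6 than in shControl (50.7% of all rows), 0 of them at least 2-fold (0.438% of all rows), with a median of 0.37. All 20 were lower in ACY1215 than in vehicle (50% of all rows), 10 of them at least 2-fold (3.04% of all rows), with a median of -1.01. PCNA, the sliding clamp of the replication fork, had 0.47 in shHDAC6 and -0.98 in ACY1215, and MCM7, a helicase subunit, had 0.69 and -1.38. RRM1, a ribonucleotide reductase subunit, had 0.06 in shHDAC6 and -0.997 in ACY1215. In CAY10603 against vehicle the median was 0.04, with 14 of 20 higher (51.5% of all rows), while the median of the histone rows was -0.21. In shHDAC6 against shControl the replication median was less than that of the histone rows (0.86). The part of S phase in the histone values was not tested.

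The labels allow 1 comparison with more than 1 library on each side, the 3 libraries with repressed HDAC6 against the 2 controls. By edgeR's quasi-likelihood test with experiment type as a covariate, 0 of the 41 histone rows tested had an adjusted p under 0.05 (0% of 13449 rows) and 0 had an unadjusted p under 0.05 (0.744% of all rows), also by DESeq2. The fit has 2 residual degrees of freedom and treats different treatments as replicates. No label speaks of separate cultures, so p-values reflect only how far these libraries differ among themselves. The median log2 fold was -0.08, with 27 rows below 0 and 14 above. The rows with the smallest p were HIST1H4C (log2 fold 0.52), HIST2H3C (0.58) and HIST1H2BD (-0.46), each with an adjusted p of 1 by edgeR. HIST2H3C was called once ACY1215 was left out (log2 fold 0.88, adjusted p = 0.0496 by edgeR), where 4 rows were called in all. A p that misses the threshold does not show that histone rows did not differ, and the histone medians of shHDAC6 and ACY1215 against their own controls have opposite signs.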

How the data were processed

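RNA was measured in 5 libraries of TOV21G cells, 1 per treatment, made from total RNA with a stranded kit per the labels' protocols. The deposited table gives each gene an expected count, a whole number throughout, and an FPKM value from the authors, as named in the headers. RSEM 1.2.3, edgeR and hg19 are named in the submitters' processing notes, with no role given. The sources used here do not give the aligner, annotation or strand setting. Whether RNA was selected by its poly(A) tail is not stated here. The part of capture of RNA without such a tail in the histone values was not tested. The DMSO column was read as the vehicle library. Columns of unknown samples numbered 0, and 2 blank rows were left out.

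The members and gene lists were chosen with earlier results of these data known. Counts were scaled by TMM in edgeR 4.0.16 (R 4.3.3) on rows that reached 1 CPM in 2 or more libraries. Pair folds are log2 ratios of scaled CPM, with 2 as prior count, over rows with a mean of at least 5 CPM, and fewer counts at low levels make single folds less sure. FPKM folds used a pseudocount of 0.1. The replicated contrast was tested with edgeR's robust quasi-likelihood F test over all rows, with Benjamini-Hochberg adjustment at 0.05, and repeated with DESeq2 1.42.0. Methods were tested on simulated data. Intervals at 95% are exact binomial and cover counting error only. Near-identical copies can share reads, so values of single rows are uncertain and sums by type were given beside them.

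Rows were named by a rule: the 3 highest rows of each type by mean CPM, the 4 highest and 4 lowest folds of each intervention against its control, all cluster 2, 3 and 4 rows above the floor, the 3 smallest p-values, and rows against the direction of the others. Rows of back-to-back pairs were chosen by position. From each list at most 5 genes of the highest mean CPM could be named. The short rows named beside the length medians are examples chosen after seeing the data. Sequences are from RefSeq and GENCODE on GRCh38, not the build of the table, and no coordinates were converted. The figures were drawn with matplotlib 3.10.9. Alternatives were another scaling, filter, prior count, measure or control library, and leaving out each library.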

Additional observations from a re-analysis of the deposited data

How the results depend on the processing

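Every pair rests on 1 library per side, so the spread between cultures is not known and intervals cover counting error only. Total-count scaling moved the median of all rows to -0.10 in ACY1215 against vehicle, as FPKM did (-0.10), and to 0.03 and -0.04 in the other interventions, and the histone differences below can be read relative to that. No paired analysis was possible because replicate numbers only follow the order of the records. The cause of the changes below was not tested, except that a setting with fewer rows or another control compares other values by construction.

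With the other control library, the median over the histone rows was 0.17 in shHDAC6 (0 rows at least 2-fold higher), -0.77 in ACY1215 (9 rows at least 2-fold lower) and 0.43 in CAY10603 (4 rows at least 2-fold higher). HIST1H3H was then at -0.048 in shHDAC6 and HIST1H4K at 0.22 in ACY1215, both of the opposite sign. The type sums of H1, H2A, H2B, H3 and H4 had log2 ratios of -0.060, 0.080, 0.009, 0.50 and 0.053 in shHDAC6 against vehicle, -0.52, -0.81, -0.98, -0.83 and 0.036 in ACY1215 against shControl, and 0.46, 0.44, 0.36, 0.64 and 0.85 in CAY10603 against shControl.

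By sums of FPKM the type ratios, in the same order, were 0.61, 0.60, 0.58, 0.76 and 0.82 in shHDAC6 against shControl, -1.36, -1.52, -1.76, -1.17 and -1.003 in ACY1215 against vehicle, and -0.33, -0.23, -0.37, 0.33 and -0.17 in CAY10603 against vehicle. With total counts they were -1.37, -1.55, -1.76, -1.33 and -1.03 in ACY1215, -0.33, -0.24, -0.37, 0.20 and -0.16 in CAY10603, and 0.71, 0.74 and 0.72 for H1, H2A and H2B in shHDAC6. The median of single rows in ACY1215 was -1.43 with total counts and -1.41 by FPKM plus 0.1, and in shHDAC6 it was 0.71 by FPKM plus 0.1. With the FPKM median of all rows set to 0, chosen after seeing the data as were the type sums with the other control, it was 0.70 in shHDAC6, with 8 rows at least 2-fold higher. The share of all rows at least 2-fold higher by this measure is not given here.

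With no filter on low counts the medians were 0.70 in shHDAC6 against shControl, -1.21 in ACY1215 against vehicle and 1.06 in CAY10603 against ACY1215. There 18 of 57 histone rows were at least 2-fold higher (5.74% of all rows) and 2 lower (3.13%) in shHDAC6 against shControl. For ACY1215 against vehicle 39 of 58 were at least 2-fold lower (15.7% of all rows) and 0 higher (5.71%). For CAY10603 against vehicle 5 of 60 were lower (11% of all rows) and 3 higher (3.88%). CAY10603 against ACY1215 had 32 of 59 higher (10.4% of all rows) and 1 lower (7.18%). shControl against vehicle had 13 of 59 lower (22.9% of all rows) and 1 higher (2.07%). A floor of 1 CPM gave a median of 1.11 in CAY10603 against ACY1215, and leaving out the near-identical cluster 2 copies gave 1.14 there. Those copies include HIST2H3C, so 0 rows at least 2-fold higher in CAY10603 against vehicle then follows by construction. With DESeq2 size factors 3 rows were at least 2-fold lower in shControl against vehicle, in place of 5 with TMM (0.903% of all rows). The share of all rows with DESeq2 size factors is not given here.

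In the edgeR test, leaving out each library in turn gave a median log2 fold of -0.69 (without shHDAC6) to 0.86 (without the vehicle, when the contrast is shHDAC6 against shControl with 1 library a side and the spread comes from the drug libraries alone), and 0.28 without ACY1215. It gave 0 to 6 rows of 41 at an unadjusted p under 0.05 and 0 to 1 rows called, the 1 being HIST2H3C without ACY1215, where 4 of all rows were called. The 6 rows came without the vehicle (14.6% of histone rows, against 2.01% of all rows), and without ACY1215 there were 3 (7.32%, against 1.56%). In the other fits there were 0 to 2, with 0.835% to 0.965% of all rows. The log2 fold of HIST1H4C ranged from -0.034 (without shHDAC6; -0.033 without shControl) to 1.32, and that of HIST1H2BD from -0.92 to 0.19 (without the vehicle), so both changed sign.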
